A study of Mus musculus with 12 samples.

Results

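Synaptic vesicle and exocytosis genes load, dock, fuse and recover the vesicles that release transmitter and peptides, and they were followed here in the early cortex. Members were chosen by gene symbol, with name patterns for SNARE proteins and their regulators, synaptotagmins, Rab3 proteins, active zone scaffolds, vesicle membrane proteins, synapsins, synucleins and vesicle endocytosis proteins. The patterns matched 70 of the 4859 genes measured, and 5 of the 70 (*Rab31*, *Rab32*, *Rab33a*, *Syndig1* and *Syndig1l*) matched by symbol only, since their products are not core parts of this machinery. All 4859 genes had been selected by the authors as differentially expressed in these libraries, so every p-value below describes a selected list.

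Cells were sorted by FACS from the cerebral cortex of Tg(Ebf2-EGFP)FB58Gsat mouse embryos, which carry EGFP under the control of *Ebf2* regulatory sequence, at 3 stages (E11.5, then E13.5, then E15.5). *Ebf2* marks early-born neurons of the preplate and Cajal-Retzius neurons of the marginal zone, and the comparison asked how these neurons differ from the other cortical cells and how they mature. The Ebf2-EGFP- gate held every cortical cell without reporter signal, progenitors and other neurons alike. Each of the 6 groups of stage and population held 2 libraries, 12 in all, and the study's methods describe them as biological replicates from pooled embryos.

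Levels are FPKM, fragments per kilobase of transcript scaled to the mapped fragments of a library, so genes are compared per length. The study states sequencing depth only as an average over samples, so the depth of each library is not known here. Differences are log2 fold changes between group means on the log2(FPKM + 1) scale, positive when higher in Ebf2-EGFP+ cells, with the standard error (SE) of a limma fit to all 12 libraries. A gene was called at a Benjamini-Hochberg adjusted p under 0.05 over all 4859 genes. In each of the 5 comparisons of 2 groups, every member called also had both libraries of 1 group above both of the other. Bulk levels cannot tell fewer cells of a type from less RNA per cell.

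At a presynaptic terminal, the vesicle SNARE synaptobrevin (*Vamp2*) zips together with syntaxin and SNAP-25 of the plasma membrane and pulls both membranes into contact. Munc13 and complexins prepare and clamp this assembly, and synaptotagmins trigger it when calcium enters. Many of these proteins have relatives that serve secretion in all cells, and in the embryonic cortex the neuronal forms are known to appear in postmitotic neurons before synapses are mature.

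The summed levels of the Cajal-Retzius, radial glia and pan-neuronal marker lists ran with the labels, and other cell type lists are given further below. The 8 Cajal-Retzius markers summed to 319.8 and 295 FPKM in Ebf2-EGFP+ cells and 13 and 12.1 FPKM in the Ebf2-EGFP- population at E11.5, to 178 and 232 against 6.78 and 7.18 FPKM at E13.5 and to 542 and 1163 against 18.4 and 14 FPKM at E15.5, with *Reln* the most abundant. Of these 8, all but *Ndnf* were called higher in Ebf2-EGFP+ cells at the first stage, and all at the last, and 3 rose and 3 fell over the stages in those cells. The 8 radial glia markers, led by *Vim*, ran the other way, at 430.2 and 406 against 1624 and 1341 FPKM at E11.5 and 152 and 89.0 against 817 and 456 FPKM at E15.5. The 14 pan-neuronal markers, led by *Tubb3*, summed to 4694 and 4065 FPKM in Ebf2-EGFP+ and 856 and 916 FPKM in the Ebf2-EGFP- population at E11.5, and to 4919.5 and 5096 against 2972 and 3533 FPKM at E15.5. Neuronal marker levels thus rose and radial glia levels fell with stage in the Ebf2-EGFP- libraries, and the part of these shifts in the differences below was not tested.

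Together the 70 members measured 1214 and 1141 FPKM in the Ebf2-EGFP+ libraries and 482 and 477 FPKM in the Ebf2-EGFP- libraries at E11.5. The sums were 1811 and 1708 against 804 and 926 FPKM at E13.5 and 2400.4 and 2347 against 1452 and 1596 FPKM at E15.5. The summed level stood higher in the Ebf2-EGFP+ libraries throughout and rose at each step in both populations, and Ebf2-EGFP- cells at E15.5 stood above Ebf2-EGFP+ cells at E11.5. The highest group mean was that of Ebf2-EGFP+ cells at E15.5 for 46 of the 70 members and that of Ebf2-EGFP- cells at E11.5 for 11. This count was not taken over all genes, so it describes the members only.

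**Figure D1:**
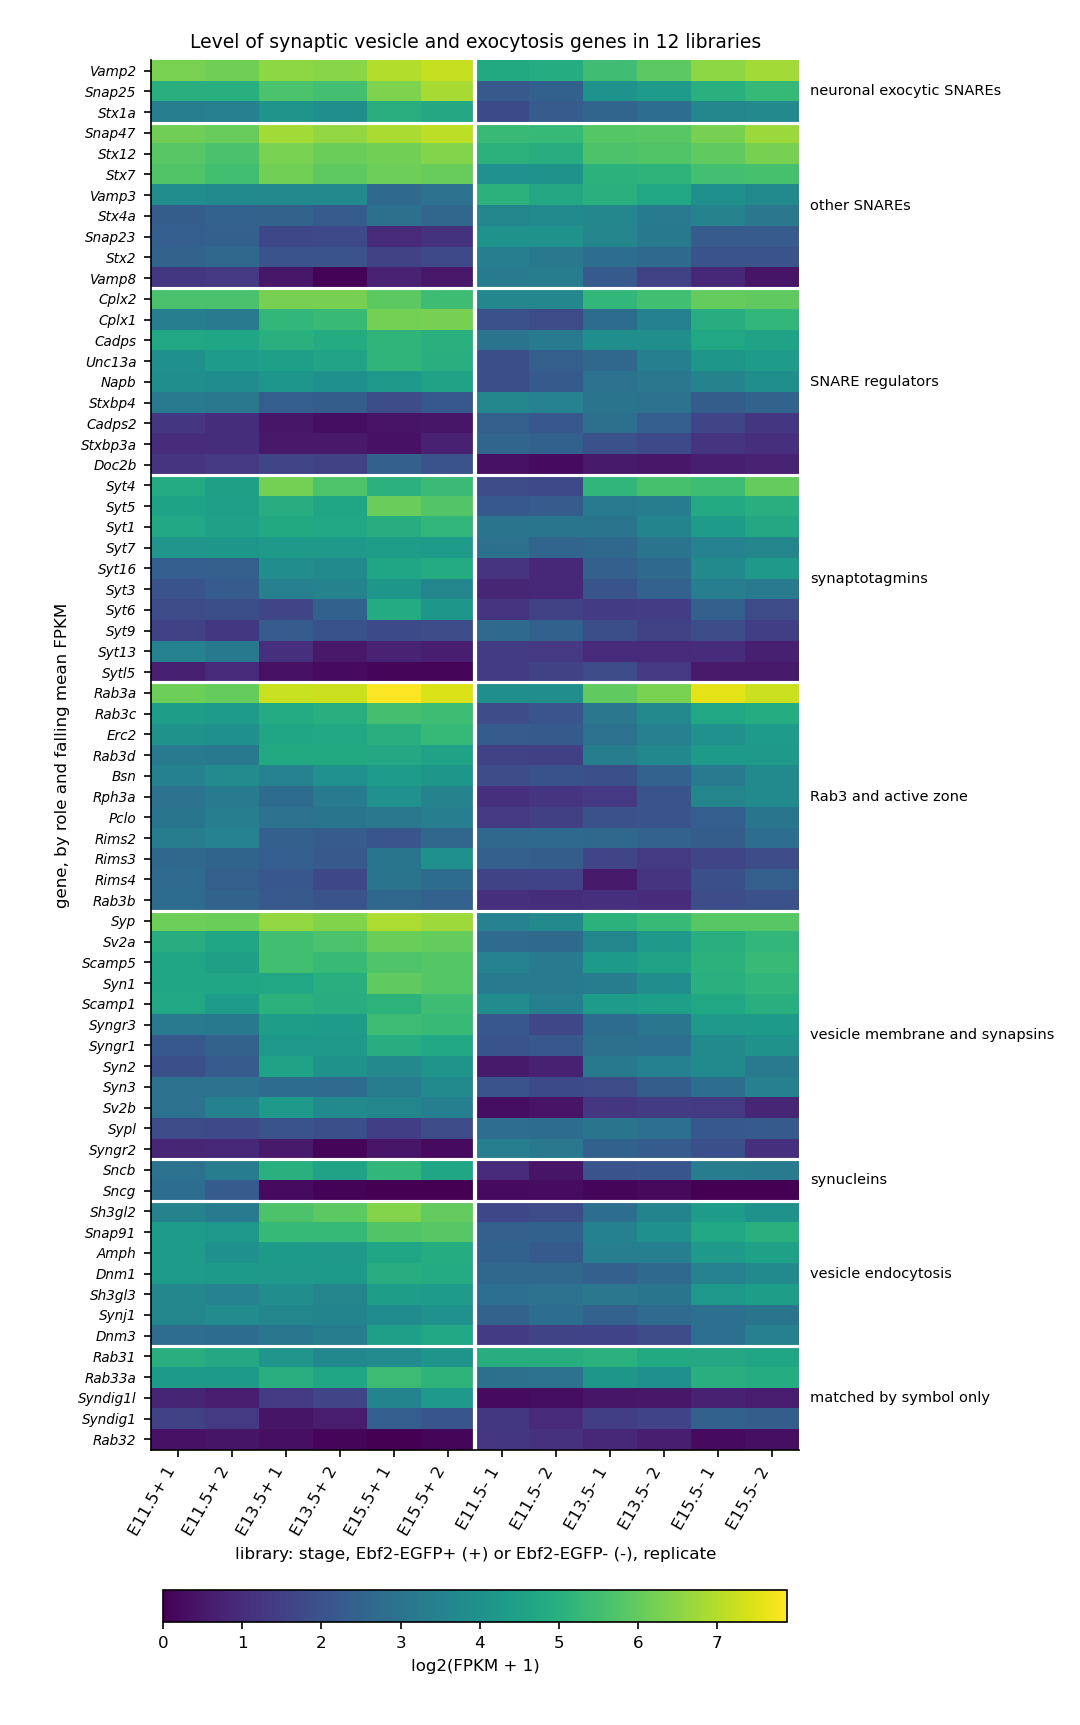
Level of the members shown (rows, by role and falling mean FPKM) in each of the 12 libraries (columns, stage and population with replicate number), coloured by log2(FPKM + 1). Rows such as *Snap25* and *Syp* brighten with stage in both populations, whereas *Snap23*, *Vamp8* and *Syngr2* are brightest in the Ebf2-EGFP- libraries at E11.5.

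Of the 70 members, 52 were called higher in Ebf2-EGFP+ cells and 12 lower at E11.5, where 36.8% of all 4859 genes were higher and 44.9% lower. At E13.5, 51 were higher and 14 lower, beside 32.1% and 43.5% of all genes, and at E15.5, 38 were higher and 9 lower, beside 25.8% and 31.6%. The same shares of all genes stand beside the counts by role and by list given below. The members' median log2 fold change fell from 1.37 to 1.01 and then to 0.54 over these stages, beside all genes at -0.19, -0.19 and -0.11. Scaling the libraries by the median of ratios shifts the differences toward Ebf2-EGFP+ cells by an amount that depends on the gene's level (median 0.23, 0.26 and 0.18 over all genes at these stages), and the members' medians then read 1.53, 1.26 and 0.73.

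The direction was usually kept: 35 members were higher at all 3 stages (14.6% of all genes were) and 8 were lower at all 3 (21.8% of all genes). Another 14 members, among them *Vamp2*, *Rab3a*, *Syt4*, *Cplx2*, *Syn2* and *Syn3*, were higher at E11.5 and E13.5 and not called at E15.5. In the paired fit with a replicate block, 7 of these 14 were called higher at E15.5 and 2, *Cplx2* and *Syt4*, lower, and 43 members (19.3% of all genes) were then higher at all 3 stages. The 8 lower members were *Vamp3*, *Stx4a*, *Snap23*, *Stxbp3a*, *Cadps2*, *Sytl5*, *Sypl* and *Syngr2*, each a relative of a neuronal gene in the set, and those outside the naming rule were picked out after their values were seen. The paired fit also called *Stx2* and *Stxbp4* lower at all 3 stages.

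**Figure D2:**
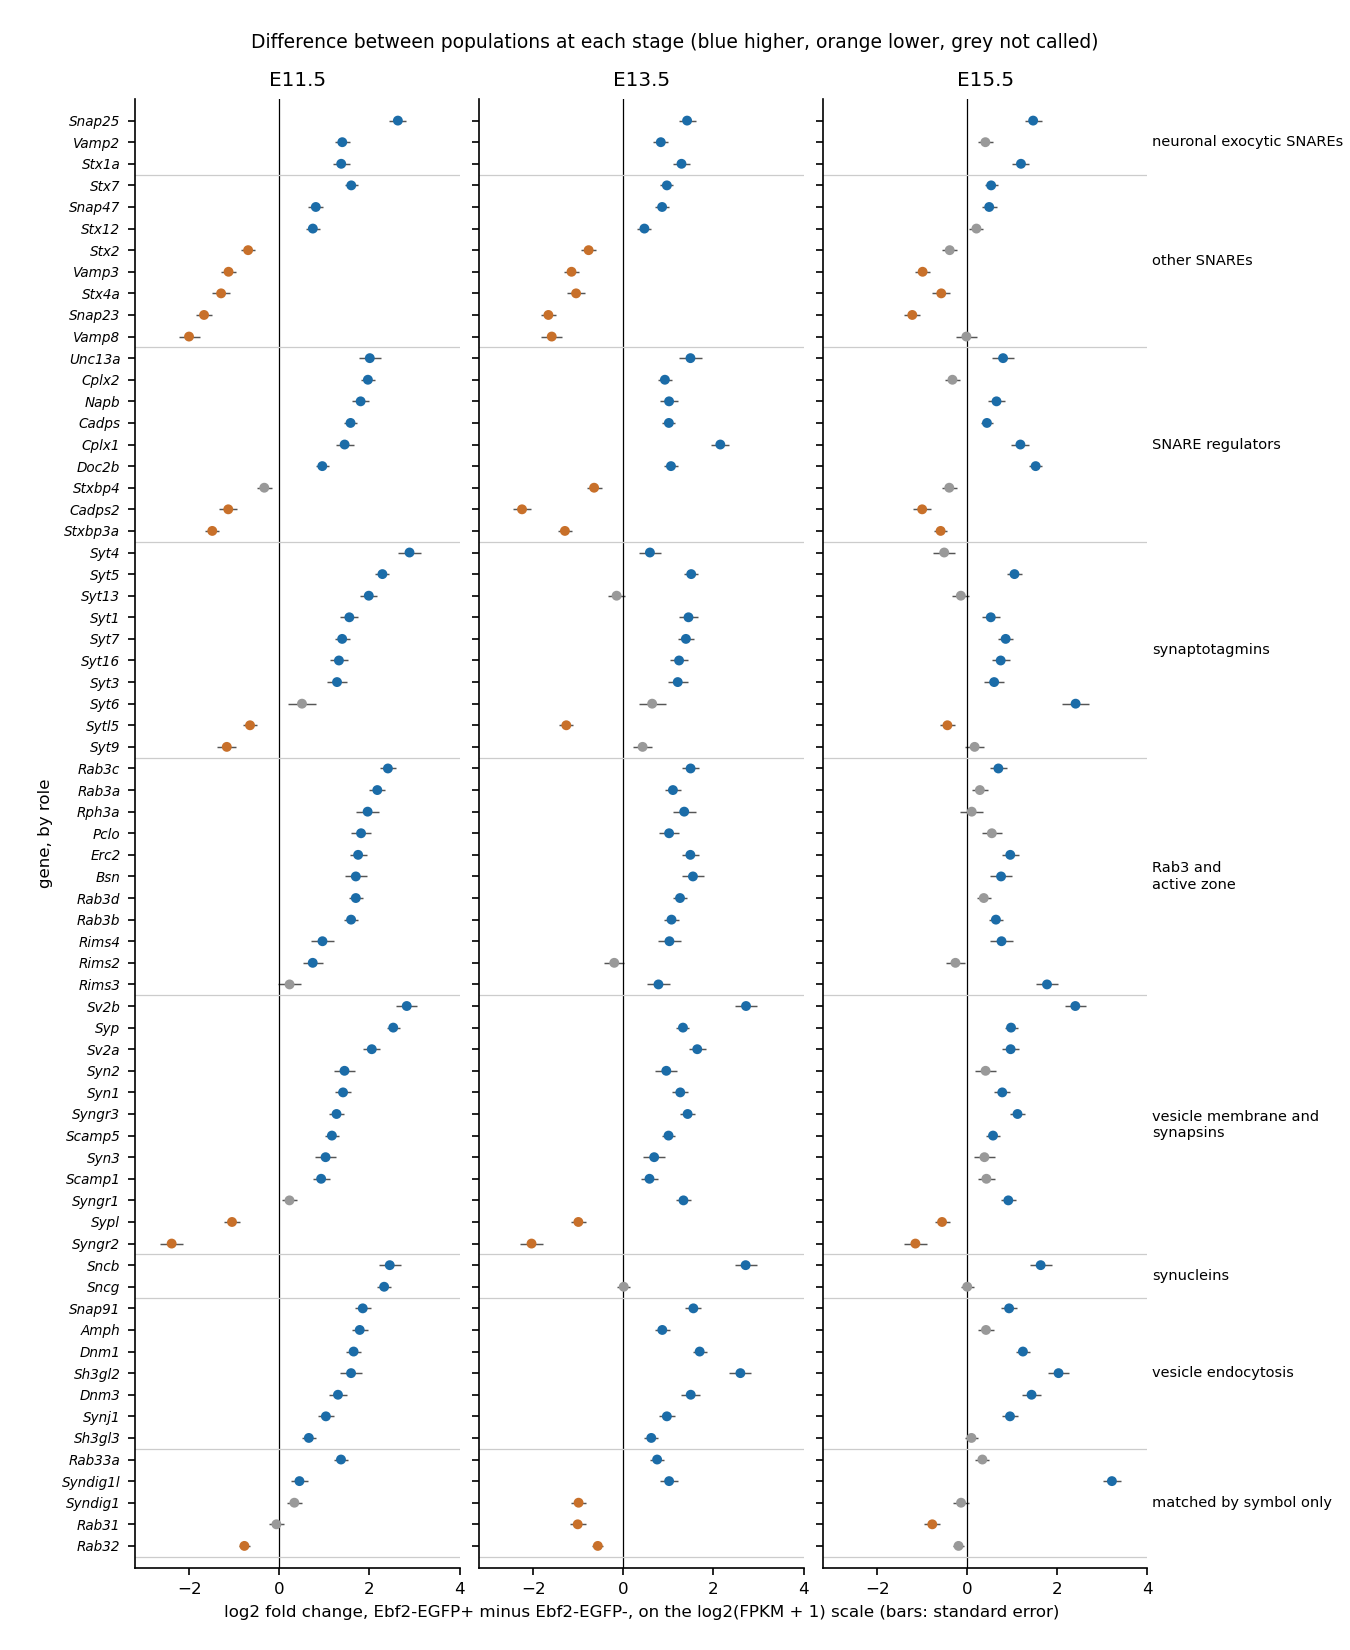
Log2 fold change between Ebf2-EGFP+ and Ebf2-EGFP- cells (points) with its standard error (bars) for the members shown, by role, with 1 panel a stage; blue points were called higher, orange lower and grey not called. Most points lie right of 0 at E11.5 and draw toward 0 by E15.5, while *Sv2b*, *Sh3gl2*, *Syt6* and *Syndig1l* stay or move far to the right.

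The 4 SNARE genes of neuronal exocytosis, *Vamp2* and *Snap25* among them, were all higher in the Ebf2-EGFP+ population at E11.5 and E13.5, and 3 of the 4 at E15.5. *Snap25* (chr2:136713453-136782428, plus strand, GENCODE M21 on GRCm38) encodes the plasma membrane SNARE that bridges syntaxin and synaptobrevin. It measured 29.6 and 30.3 FPKM in the Ebf2-EGFP+ and 3.57 and 4.46 FPKM in the Ebf2-EGFP- libraries of E11.5, then 49.1 and 45.1 against 15.1 and 19.1 FPKM at E13.5 and 81.1 and 114 against 31.0 and 37.9 FPKM at E15.5. The populations did not overlap at any stage, and the Ebf2-EGFP- libraries at E15.5 only just exceeded the Ebf2-EGFP+ libraries at E11.5. The log2 fold change was 2.63 (SE 0.19, limma adjusted p = 5.27e-07) at E11.5, 1.42 at E13.5 and 1.46 (SE 0.19, limma adjusted p = 7.17e-05) at E15.5.

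*Vamp2* (chr11:69088490-69092384, plus strand), the vesicle SNARE and most abundant of the 4, measured 77.5 and 71.6 FPKM in the Ebf2-EGFP+ and 26.6 and 28.7 FPKM in the Ebf2-EGFP- libraries of E11.5. At E15.5 it reached 124 and 145 against 92.0 and 111 FPKM. The gap closed from 1.40 (SE 0.17, limma adjusted p = 1.43e-05) at E11.5 to 0.40 (SE 0.17, limma adjusted p = 0.0578) at E15.5. The last difference was called higher in the paired fit with a replicate block (adjusted p = 0.0123) and under median-of-ratios scaling (log2 fold change 0.61, adjusted p = 0.022). It was also called without Ebf2-EGFP- replicate 2 of E15.5 (0.54) and without either Ebf2-EGFP- library of E13.5 (0.40). *Stx1a*, a plasma membrane syntaxin of neurons, was higher at all 3 stages, with a log2 fold change of 1.37 at E11.5.

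The 8 other SNARE genes split. *Snap47*, *Stx12* and *Stx7*, which serve endosomal and other intracellular fusion, were higher in the Ebf2-EGFP+ population at E11.5 and E13.5. At E15.5 *Snap47* and *Stx7* were still higher and *Stx12* was not called. *Snap47*, the most abundant of them, measured 70.8 and 64.7 FPKM in the Ebf2-EGFP+ and 38.7 and 37.6 FPKM in the Ebf2-EGFP- libraries of E11.5. This is a difference of 0.81 (SE 0.16, limma adjusted p = 0.000611) on the log2 scale. The remaining 5, *Vamp3*, *Vamp8*, *Stx2*, *Stx4a* and *Snap23*, mediate plasma membrane and endosomal fusion in most cell types, and all 5 were lower in the Ebf2-EGFP+ population at E11.5 and E13.5.

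*Snap23* (chr2:120567671-120601255, plus strand), the broadly expressed relative of *Snap25*, measured 4.07 and 4.31 FPKM in the Ebf2-EGFP+ and 15.4 and 15.6 FPKM in the Ebf2-EGFP- libraries of E11.5, 2.25 and 2.36 against 11.1 and 8.04 FPKM at E13.5 and 0.927 and 1.22 against 3.81 and 3.82 FPKM at E15.5. Its level fell at each step in both populations and stayed lower in Ebf2-EGFP+ cells, with log2 fold changes of -1.67 (SE 0.17, limma adjusted p = 5.3e-06) at E11.5 and -1.22 (SE 0.17, limma adjusted p = 0.000149) at E15.5. *Vamp8*, a SNARE of late endosomes and of secretion outside neurons, went from 1.44 and 1.47 against 8.77 and 8.90 FPKM at E11.5 to 0.413 and 0.0595 against 3.70 and 1.87 at E13.5 and 0.675 and 0.456 against 0.844 and 0.355 at E15.5. It was lower in the Ebf2-EGFP+ population at E11.5 (-2.00, SE 0.23, limma adjusted p = 1.16e-05), and at E15.5 the libraries overlapped and no difference was called.

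Within pairs of relatives, the neuronal gene's share of the summed FPKM set the populations apart, in pairs chosen after the values were seen. *Snap25* made up 87.9 and 87.6% of *Snap25* plus *Snap23* in Ebf2-EGFP+ libraries and 18.9 and 22.2% in Ebf2-EGFP- libraries at E11.5, and 98.9 and 98.9% against 89.1 and 90.8% at E15.5. *Syngr3* made up 91.1 and 90% of *Syngr3* plus *Syngr2* against 26.6 and 21.9% at E11.5, and 99.1 and 99.6% against 86.4 and 94.3% at E15.5. *Vamp2* within *Vamp2* plus *Vamp3* went from 44.9 and 52.2% to 86.5 and 89.9% in Ebf2-EGFP- libraries, and from 85.2 and 85.3% to 95.6 and 95.5% in Ebf2-EGFP+ libraries. In all 5 pairs shown the share was higher in both Ebf2-EGFP+ libraries than in either Ebf2-EGFP- library of the same stage, and in the latter it was higher at E15.5 than at E11.5.

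**Figure D3:**
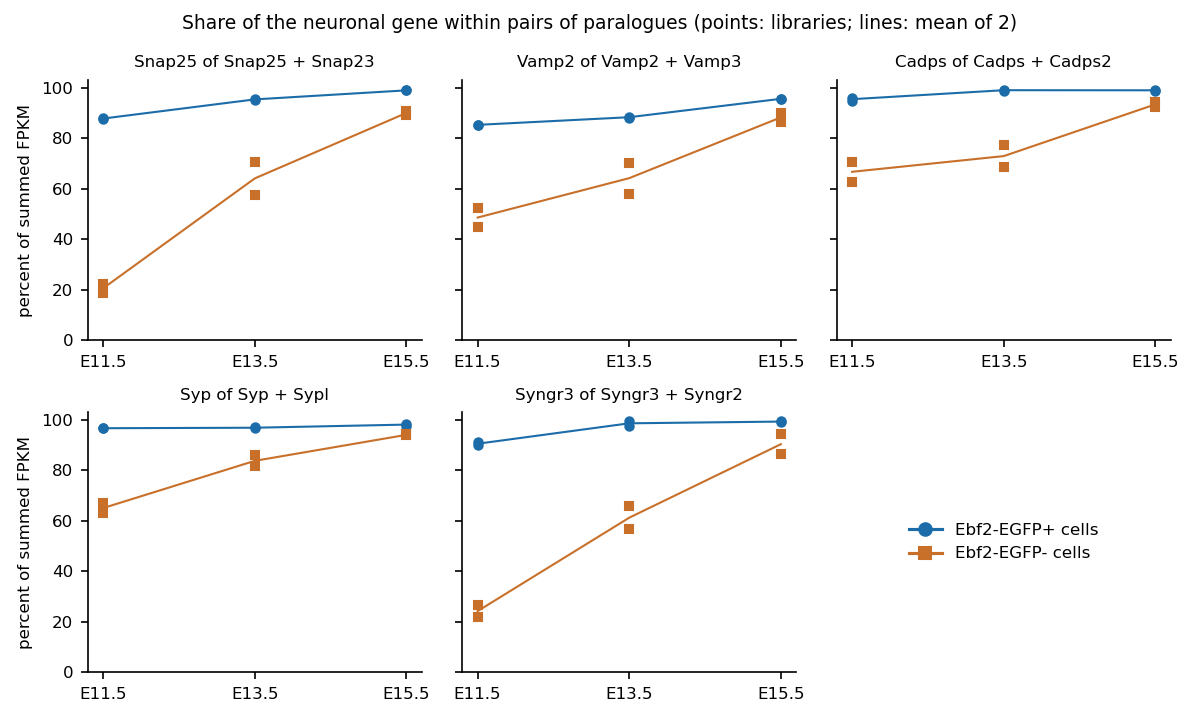
Percent of the summed FPKM of a pair of related genes that comes from the neuronal one (y axis) at each stage (x axis), for 5 pairs; circles are Ebf2-EGFP+ and squares Ebf2-EGFP- libraries, and lines join the means of 2 libraries. For *Snap25* the share starts near 88% in Ebf2-EGFP+ and at 18.9 and 22.2% in Ebf2-EGFP- libraries, and all libraries end above 89% at E15.5.

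*Stx4a*, a plasma membrane syntaxin of most cell types, measured 4.03 and 4.63 FPKM in the Ebf2-EGFP+ and 11.3 and 12.7 FPKM in the Ebf2-EGFP- libraries of E11.5. The libraries did not overlap, and its log2 fold change was -1.29 (SE 0.20, limma adjusted p = 0.000109). At E15.5 *Stx4a* was still lower (-0.58, SE 0.20, limma adjusted p = 0.0302), a call lost without Ebf2-EGFP- replicate 1 (-0.38) or Ebf2-EGFP+ replicate 2 (-0.43) of that stage, under median-of-ratios scaling (-0.39) and in a fit of that stage alone (adjusted p = 0.0987). The gene was singled out after its values were seen, and its level is uncertain where reads could be shared between overlapping annotations.

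Among 10 regulators of SNARE assembly, 7 were higher in the Ebf2-EGFP+ population at E11.5, among them the complexin genes and the priming factor gene *Unc13a*. The complexins, which clamp and promote fusion, differed in course. *Cplx1* measured 9.27 and 8.80 FPKM in the Ebf2-EGFP+ and 2.85 and 2.49 FPKM in the Ebf2-EGFP- libraries of E11.5, 36.4 and 38.8 against 5.86 and 9.97 FPKM at E13.5 and 74.2 and 75.7 against 29.3 and 36.1 FPKM at E15.5. *Cplx2* measured 48.0 and 48.5 FPKM in the Ebf2-EGFP+ and 11.65 and 11.52 FPKM in the Ebf2-EGFP- libraries of E11.5, 76.1 and 76.3 against 36.0 and 43.7 FPKM at E13.5 and 58.3 and 42.3 against 64.3 and 61.0 FPKM at E15.5. *Cplx1* rose at every step and stayed higher in Ebf2-EGFP+ cells, with log2 fold changes of 1.45, 2.15 and 1.18. *Cplx2* started higher at 1.97 (SE 0.16, limma adjusted p = 1.12e-06), stood at 0.92 at E13.5 and ended at -0.33 (SE 0.16, limma adjusted p = 0.101), with both Ebf2-EGFP+ libraries below both others. The E15.5 difference of *Cplx2* was called lower in the paired fit with a replicate block (adjusted p = 0.0295) and without Ebf2-EGFP+ replicate 1 of E15.5 (-0.55).

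*Cadps2*, a priming factor of dense-core vesicles, was among the 3 regulators lower in Ebf2-EGFP+ cells at E13.5, with *Stxbp3a* and *Stxbp4*. The call of *Stxbp4* (-0.65) was lost under median-of-ratios scaling (-0.38, adjusted p = 0.0665). *Cadps2* measured 0.405 and 0.224 FPKM in the Ebf2-EGFP+ and 6.5 and 4.16 FPKM in the Ebf2-EGFP- libraries of E13.5, a log2 fold change of -2.25 (SE 0.20, limma adjusted p = 6.18e-06). Its relative *Cadps*, which shares this role, was higher at all 3 stages, with log2 fold changes of 1.58 at E11.5 and 1.01 at E13.5. Over the 3 stages the highest Ebf2-EGFP+ library of *Cadps2*, at 1.38 FPKM, stood level with the lowest Ebf2-EGFP- library, at 1.36 FPKM.

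Synaptotagmins sense calcium for fusion, and 7 of the 10 listed were higher in the Ebf2-EGFP+ population at E11.5. *Syt4*, which lacks fast calcium triggering and sits on dense-core vesicles, was the most abundant by mean. It measured 27.8 and 21.4 FPKM in the Ebf2-EGFP+ and 2.48 and 2.37 FPKM in the Ebf2-EGFP- libraries of E11.5, 74.9 and 51.3 against 35.5 and 46.9 FPKM at E13.5 and 32.0 and 40.9 against 42.0 and 64.2 FPKM at E15.5. Between E11.5 and E13.5 its level rose in both populations. By E15.5 it had fallen in the Ebf2-EGFP+ population without overlap of libraries, while the Ebf2-EGFP- libraries of E13.5 and E15.5 overlapped. Both Ebf2-EGFP- libraries then stood above both Ebf2-EGFP+ libraries. The log2 fold change started at 2.89 (SE 0.24, limma adjusted p = 1.37e-06), passed 0.59 and ended at -0.51 (SE 0.24, limma adjusted p = 0.0924). The E13.5 call (adjusted p = 0.0439) was lost without any 1 library of E11.5, and without replicate 1 of E13.5 in Ebf2-EGFP+ (0.32) or Ebf2-EGFP- cells (0.40), and in a fit of that stage alone (adjusted p = 0.0526), and the value was 0.90 under median-of-ratios scaling. The E15.5 difference was called lower in the paired fit with a replicate block (adjusted p = 0.0287) and without Ebf2-EGFP- replicate 1 of E15.5 (-0.81).

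*Syt1*, the fast calcium sensor of transmitter release, and *Syt3*, *Syt5*, *Syt7* and *Syt16* were higher at all 3 stages. The difference nevertheless shrank from E11.5 to E15.5 for *Syt5*, by 1.24 (SE 0.22, limma adjusted p = 0.00067), and for *Syt1*, by 1.03 (SE 0.28, limma adjusted p = 0.00846), and in the paired fit with a replicate block the falls of *Syt3*, *Syt7* and *Syt16* were called as well. *Syt5* had the largest of these differences at E11.5 (2.29) and measured 66.8 and 53.6 against 27.2 and 29.6 FPKM at E15.5. *Syt13*, a family member without calcium binding, was an early gene. It measured 10.3 and 8.10 FPKM in the Ebf2-EGFP+ and 1.65 and 1.48 FPKM in the Ebf2-EGFP- libraries of E11.5, whereas all 8 libraries of E13.5 and E15.5 lay between 0.458 and 1.10 FPKM. Its difference was 1.99 (SE 0.19, limma adjusted p = 2.96e-06) at E11.5, and none was called later.

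*Syt6* was a late gene. It measured 2.57 and 2.72 against 1.25 and 1.93 FPKM at E11.5, 2.12 and 4.41 against 1.56 and 1.71 FPKM at E13.5 and 27.9 and 17.1 against 4.36 and 2.48 FPKM at E15.5, so that only the Ebf2-EGFP+ libraries of E15.5 stood clearly apart. The log2 fold change was 2.40 (SE 0.30, limma adjusted p = 5.74e-05) at E15.5, and 0.50 and 0.64 at the earlier stages, neither called. In the paired fit with a replicate block both earlier differences were called higher (adjusted p = 0.0214 and 0.00661). That at E11.5 was also called in a fit of its stage alone (adjusted p = 0.0189), and that at E13.5 under median-of-ratios scaling (0.86, adjusted p = 0.0214) and without Ebf2-EGFP+ replicate 1 of E13.5 (1.04). *Syt9*, a gene picked after its values were seen, started lower, at 1.94 and 1.43 against 5.58 and 4.44 FPKM at E11.5 (-1.16), stood at 3.92 and 2.98 against 2.71 and 1.91 FPKM at E13.5 (0.43, not called) and at 2.45 and 2.66 against 2.65 and 1.75 FPKM at E15.5 (not called). Its E13.5 difference was called higher in the paired fit (adjusted p = 0.023) and under median-of-ratios scaling (0.66, adjusted p = 0.00512).

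Rab3 proteins tether vesicles, and the scaffolds of the active zone hold them at the release site. Of these 11 members, 10 were higher in the Ebf2-EGFP+ population at E11.5 (all but *Rims3*), 10 at E13.5 (all but *Rims2*) and 6 at E15.5, with none called lower at the 3 stages. The paired fit with a replicate block and median-of-ratios scaling each called 9 higher at E15.5. *Rab3a* (chr8:70754679-70758677, plus strand), the most abundant of all 70 members, measured 69.5 and 64.4 FPKM in the Ebf2-EGFP+ and 14.2 and 13.9 FPKM in the Ebf2-EGFP- libraries of E11.5. It rose to 147 and 150.1 against 61.1 and 77.3 FPKM at E13.5 and 235 and 178 against 188 and 150.1 FPKM at E15.5, where the libraries overlapped. Its log2 fold change was 2.18 (SE 0.18, limma adjusted p = 1.08e-06) at E11.5, 1.10 at E13.5 and 0.28 (SE 0.18, limma adjusted p = 0.19) at E15.5. The last was called higher with the replicate block (adjusted p = 0.0329) and under median-of-ratios scaling (0.49, adjusted p = 0.0339).

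Bassoon (*Bsn*) and *Erc2*, large scaffolds of the active zone, were higher at all 3 stages. At E11.5 and E13.5 the log2 fold changes were 1.70 and 1.55 for *Bsn* and 1.75 and 1.49 for *Erc2*. The RIM genes differed among themselves, and were picked after their values were seen. *Rims4* was higher at all 3 stages. *Rims2* was higher at E11.5 alone, at 8.91 and 10.3 against 5.20 and 5.46 FPKM (0.74, SE 0.22, limma adjusted p = 0.00746), a call lost without Ebf2-EGFP+ replicate 2 of that stage (0.65). *Rims3* measured 5.29 and 4.87 against 4.33 and 4.04 FPKM at E11.5 and 7.30 and 14.4 against 2.12 and 2.52 FPKM at E15.5, and its difference went from 0.23 to 1.77 (SE 0.25, limma adjusted p = 0.000132). The Ebf2-EGFP+ libraries of *Rims3* at E15.5 differed widely from each other, and both lay above every other library.

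The vesicle membrane proteins and synapsins numbered 12, with 9 higher and 2 lower at E11.5. Synaptophysin (*Syp*; chrX:7638471-7653256, plus strand), the classic marker of synaptic vesicles, measured 70 and 68.7 FPKM in the Ebf2-EGFP+ and 10.4 and 12.1 FPKM in the Ebf2-EGFP- libraries of E11.5 and 118 and 106 against 56.6 and 56.5 FPKM at E15.5. The difference was 2.53 (SE 0.14, limma adjusted p = 1.07e-07) at E11.5 and 0.97 (SE 0.14, limma adjusted p = 0.000191) at E15.5. Its relative *Sypl*, found on vesicles of many tissues, ran the other way, with a log2 fold change of -1.05 at E11.5.

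Both SV2 vesicle glycoprotein genes were higher in Ebf2-EGFP+ cells at all 3 stages. *Sv2b* (chr7:75114894-75309262, minus strand) measured 6.63 and 10.0 FPKM in the Ebf2-EGFP+ and 0.237 and 0.343 FPKM in the Ebf2-EGFP- libraries of E11.5, 18.1 and 12.8 against 1.35 and 1.56 FPKM at E13.5 and 11.2 and 9.53 against 1.55 and 0.803 FPKM at E15.5. Every Ebf2-EGFP+ library stood at or above 6.63 FPKM and every Ebf2-EGFP- library at or below 1.56 FPKM. The log2 fold change was 2.83 (SE 0.24, limma adjusted p = 1.29e-06), 2.72 and 2.40 (SE 0.24, limma adjusted p = 1.17e-05) at the 3 stages, and it was among the 3 largest of the members at each. *Sv2a* was the more abundant gene, and its difference went from 2.05 to 0.96.

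Synapsins tie vesicles to the reserve pool, and all 3 genes were higher in the Ebf2-EGFP+ population at E11.5 and E13.5. *Syn1* (chrX:20860511-20921004, minus strand) measured 24.2 and 23.7 FPKM in the Ebf2-EGFP+ and 8.36 and 8.32 FPKM in the Ebf2-EGFP- libraries of E11.5 and 60.9 and 54.8 against 31.4 and 35.3 FPKM at E15.5, with log2 fold changes of 1.42, 1.27 and 0.78. *Syn2* was low at E11.5, at 2.76 and 3.84 against 0.470 and 0.662 FPKM, and reached 22.4 and 15.4 against 8.12 and 10.2 FPKM at E13.5. *Syn3* stayed between 2.42 and 12.3 FPKM in the 12 libraries. The differences were 1.45 for *Syn2* and 1.03 for *Syn3* at E11.5, and at E15.5 neither was called, except *Syn2* under median-of-ratios scaling (0.605, adjusted p = 0.0319).

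Promoter windows from RefSeq (GRCm38.p6; 250 bases before to 50 after a start) were matched for 53 of the 70 members, too few to compare the set with other genes, so matches are given as description. They were searched on both strands for 4 motifs, none of which contains another: TTCAGCACC (the left part of the RE1 element bound by REST, a repressor of neuronal genes), TGACGTCA (cAMP response element), CCCNNGGG (EBF core) and CAGATG (E-box of neurogenic factors). Of 27025 genes with such windows, 0.433% held the first, 2.03% the second, 15.4% the third and 19.2% the fourth. The RE1 part was found in *Syn1* and *Unc13a*, and TGACGTCA in *Syn1* and *Sh3gl2*, so *Syn1* held both. The 2 stretches of the *Syn1* promoter are shown because this gene held both of the rarer motifs, each with the match in capitals, at chrX:20921122-20921168, minus strand and chrX:20921050-20921097, minus strand, upstream of the start.
Syn1 RE1 part: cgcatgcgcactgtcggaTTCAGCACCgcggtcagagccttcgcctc
Syn1 cAMP element: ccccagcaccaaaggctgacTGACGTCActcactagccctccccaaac

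Synaptogyrins split widely. *Syngr3*, a neuronal vesicle protein, had log2 fold changes of 1.27, 1.43 and 1.12, while *Syngr2*, its relative of non-neuronal cells, measured 0.804 and 0.896 FPKM in the Ebf2-EGFP+ and 9.47 and 7.94 FPKM in the Ebf2-EGFP- libraries of E11.5 and 0.394 and 0.178 against 2.83 and 1.11 FPKM at E15.5. The difference of *Syngr2* was -2.39 (SE 0.25, limma adjusted p = 5.43e-06) at E11.5, the largest lower one among the members there, and -1.15 (SE 0.25, limma adjusted p = 0.00236) at E15.5, where it was -0.72 without Ebf2-EGFP- replicate 1. *Syngr1* was not called at E11.5 and was higher at E13.5 (1.34) and E15.5 (0.91), a gene picked after its values were seen.

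EBF core matches occurred in the windows of 13 of the 53 members, beside 15.4% of all genes with windows, and the stretches of *Syngr2*, *Vamp8* and *Sncg* are shown because these genes had, among named genes of those 13, the largest differences at E11.5. *Syngr2* held 2 matches (chr11:117809484-117809531, plus strand and chr11:117809620-117809666, plus strand), *Vamp8* 1 (chr6:72390858-72390905, minus strand) and *Sncg* 1 (chr14:34374816-34374863, minus strand), with the match in capitals. *Syngr2* and *Vamp8* were lower in Ebf2-EGFP+ cells and *Sncg* was higher at E11.5, so genes with this match lay on both sides. Among the rest of the 13, *Stx2* and *Stx4a* were lower at E11.5. *Cplx2*, *Dnm1*, *Rab33a*, *Rab3b*, *Rab3c*, *Stx1a*, *Stx7* and *Synj1* were higher.
Syngr2 distal: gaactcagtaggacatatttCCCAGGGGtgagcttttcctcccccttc
Syngr2 proximal: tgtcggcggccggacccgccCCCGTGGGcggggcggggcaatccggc
Vamp8: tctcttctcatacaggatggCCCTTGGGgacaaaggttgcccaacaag
Sncg: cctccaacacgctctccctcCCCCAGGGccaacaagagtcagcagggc

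Synucleins are small presynaptic proteins that bind vesicle membrane. *Sncb* (chr13:54758860-54766595, minus strand) measured 6.93 and 9.01 FPKM in the Ebf2-EGFP+ and 0.937 and 0.368 FPKM in the Ebf2-EGFP- libraries of E11.5, 31.3 and 22.3 against 3.03 and 3.33 FPKM at E13.5 and 36.2 and 23.7 against 9.24 and 8.36 FPKM at E15.5. It rose in both populations, and its difference was 2.45 (SE 0.25, limma adjusted p = 4.03e-06), 2.72 (SE 0.25, limma adjusted p = 6.19e-06) and 1.63 (SE 0.25, limma adjusted p = 0.000211).

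*Sncg*, a synuclein known from peripheral neurons, was an early gene like *Syt13*. It measured 6.13 and 3.95 FPKM in the Ebf2-EGFP+ and 0.165 and 0.203 FPKM in the Ebf2-EGFP- libraries of E11.5, between 0.0654 and 0.182 FPKM in the 4 libraries of E13.5, and was listed at 0 in all 4 libraries of E15.5. The difference at E11.5 was 2.33 (SE 0.15, limma adjusted p = 2.29e-07), with no fold change given where all libraries are listed at 0. *Sncb* and *Cplx2* lie 374942 bases apart on chromosome 13.

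Vesicle endocytosis genes recover membrane after fusion, and all 7 members were higher in the Ebf2-EGFP+ population at E11.5 and E13.5 and 5 at E15.5. The paired fit and median-of-ratios scaling each called 6 there. *Sh3gl2* (chr4:85205126-85639195, plus strand), which encodes endophilin A1, measured 10.5 and 8.21 FPKM in the Ebf2-EGFP+ and 2.27 and 2.57 FPKM in the Ebf2-EGFP- libraries of E11.5, 50.9 and 58.9 against 6.13 and 10.9 FPKM at E13.5 and 85.2 and 62.6 against 19.3 and 15.3 FPKM at E15.5. It rose steeply after E11.5 in Ebf2-EGFP+ cells, and its difference was 1.59 (SE 0.24, limma adjusted p = 8.07e-05), 2.60 (SE 0.24, limma adjusted p = 6.7e-06) and 2.03 (SE 0.24, limma adjusted p = 4.09e-05). *Dnm3*, a dynamin that cuts vesicles from the membrane, measured 6.03 and 5.96 against 1.59 and 2.10 FPKM at E11.5 and 21.0 and 25.1 against 6.38 and 9.74 FPKM at E15.5. Its log2 fold change was 1.30 at E11.5 and 1.43 at E15.5, beside 1.65 and 1.24 for *Dnm1*.

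Among the 5 genes matched by symbol only, *Rab31*, a Rab protein of the Golgi and endosomes, was the most abundant. It measured 30.0 and 26.0 against 29.2 and 29.2 FPKM at E11.5 and 13 and 15.8 against 26.2 and 24.3 FPKM at E15.5, overlapping first and then lower in Ebf2-EGFP+ cells (-0.78, SE 0.17, limma adjusted p = 0.0027). Its promoter window held 2 E-box matches, more than any of the other 9 members with one, and the nearer to the start is shown for that reason, with the match in capitals (chr17:65772780-65772825, minus strand).
Rab31: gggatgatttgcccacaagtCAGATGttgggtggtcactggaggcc

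*Syndig1l*, related to a protein that organises excitatory synapses, was a late gene like *Syt6*. It measured 0.751 and 0.533 against 0.175 and 0.226 FPKM at E11.5, 1.55 and 2.17 against 0.396 and 0.409 FPKM at E13.5 and 10.9 and 17.4 against 0.660 and 0.538 FPKM at E15.5. The difference reached 3.21 (SE 0.19, limma adjusted p = 7.19e-07), the largest of any member at E15.5. At E11.5 it was 0.45 (SE 0.19, limma adjusted p = 0.0495), a call lost without any 1 of that stage's 4 libraries (0.35 to 0.54) or any 1 later Ebf2-EGFP- library. It was also lost under median-of-ratios scaling (adjusted p = 0.0518), with a floor of 1 on mean FPKM (adjusted p = 0.0553) and with moderation without a trend (adjusted p = 0.0552).

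From E11.5 to E15.5, 43 of the 70 members rose and 13 fell in Ebf2-EGFP+ cells, where 33.3% of all genes rose and 42.1% fell. In Ebf2-EGFP- cells, 49 members rose and 14 fell, beside 37.7% and 47.6% of all genes. The members' median log2 change was 0.64 in Ebf2-EGFP+ and 1.51 in Ebf2-EGFP- cells, and that of all genes -0.18 and -0.32. Under median-of-ratios scaling the members' medians read 0.87 and 1.77 and those of all genes -0.035 and -0.095.

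Levels climbed step by step for many members. In Ebf2-EGFP+ cells, 29 members rose at both steps with no overlap of libraries (20.8% of all genes did), and 6 fell at both (23.9%). In Ebf2-EGFP- cells, 39 rose at both steps (24.5% of all genes) and 8 fell at both (31.7%). *Cplx1* and *Sh3gl2* had the largest rises in Ebf2-EGFP+ cells after *Syndig1l*, with log2 changes of 2.92 (SE 0.20, limma adjusted p = 2.82e-07) and 2.84 (SE 0.24, limma adjusted p = 1.29e-06). *Syt4* and *Rab3a* had the largest rises in Ebf2-EGFP- cells, with 3.95 (SE 0.24, limma adjusted p = 1.03e-07) and 3.49 (SE 0.18, limma adjusted p = 3.26e-08). *Snap23* fell by 1.33 in Ebf2-EGFP+ and by 1.78 in Ebf2-EGFP- cells on the log2 scale, and *Vamp8* fell by 2.64 in the latter.

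The difference between the populations moved down more often than up among the members. From E11.5 to E15.5, it moved down for 33 and up for 10, where 27.7% of all genes moved down and 32% up, so that 61.4% of members and 59.8% of all genes were called in either direction. The paired fit with a replicate block called 41 members down and 12 up (33.5% and 39.7% of all genes), or 75.7% of members and 73.3% of all genes. With a pseudocount of 0.1 only 5 members moved up and 37 moved down. *Syt4* had the largest fall of the difference, -3.40 (SE 0.35, limma adjusted p = 1.96e-05), followed among members above 0 in all libraries by *Cplx2* at -2.29 (SE 0.23, limma adjusted p = 1.75e-05), *Syt13* at -2.13 and *Rab3a* at -1.90 (SE 0.25, limma adjusted p = 0.000104). For *Syt4*, *Cplx2* and *Rab3a* the Ebf2-EGFP- level rose over the stages and ended above or near the Ebf2-EGFP+ level. For *Syt13* the Ebf2-EGFP+ level fell. The Ebf2-EGFP+ levels of *Syt4* and *Cplx2* also fell, without overlap of libraries, between E13.5 and E15.5. The difference moved down as well for *Syp* (-1.56) and *Snap25* (-1.17), both still higher in Ebf2-EGFP+ cells at E15.5.

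The difference moved up most for *Syndig1l*, by 2.76 (SE 0.27, limma adjusted p = 1.75e-05), and it also moved up for *Syt6*, by 1.90 (SE 0.43, limma adjusted p = 0.00282), both from Ebf2-EGFP+ levels that rose late. For *Vamp8* (1.98, SE 0.33, limma adjusted p = 0.000446) and *Syngr2* (1.24) it moved up as the Ebf2-EGFP- level fell, and for *Syngr2* the value was 0.81 without Ebf2-EGFP- replicate 2 of E15.5 and not called with a pseudocount of 0.1 (0.86). *Rims3* moved up by 1.54 (SE 0.35, limma adjusted p = 0.00321). For *Cplx1* (-0.27), *Sv2b* (-0.43), *Sh3gl2* (0.43) and *Dnm3* no change of the difference was called, except for *Sv2b* with a pseudocount of 0.1 (-1.32).

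**Figure D4:**
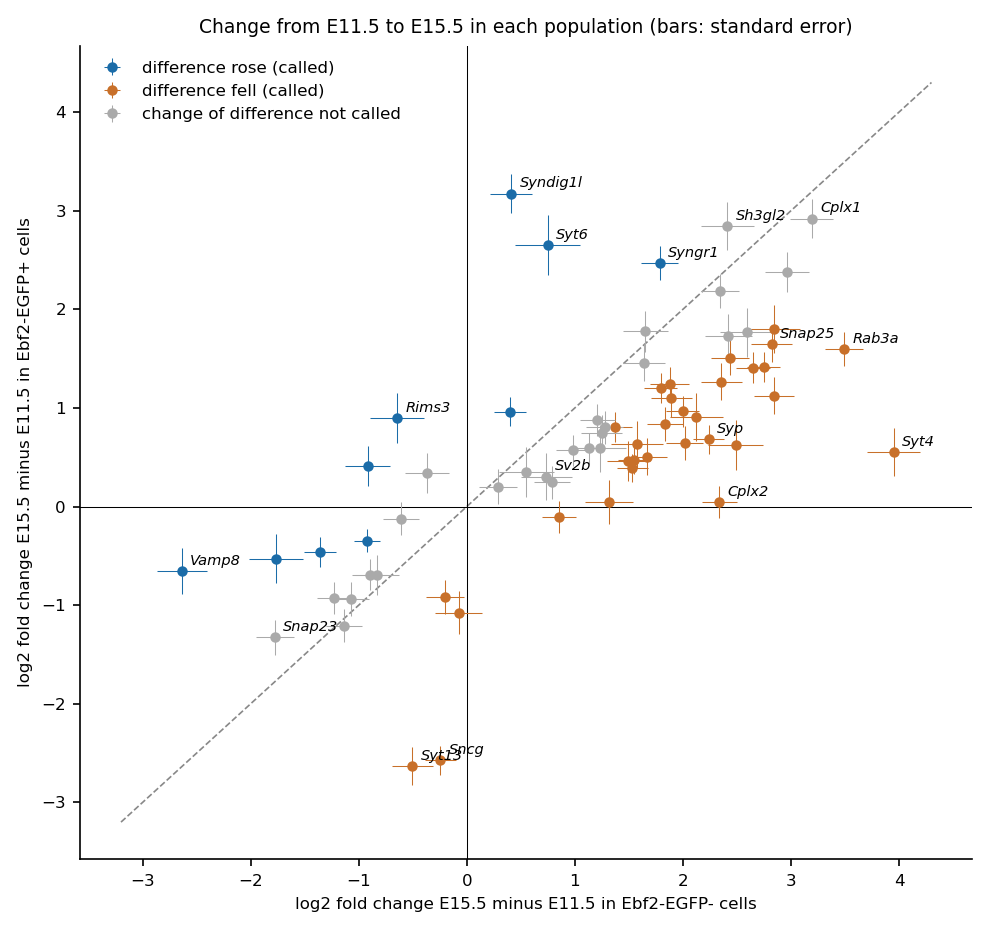
Log2 fold change from E11.5 to E15.5 in Ebf2-EGFP- cells (x axis) and in Ebf2-EGFP+ cells (y axis) for the members shown, with standard errors (bars); colours give the call for the change of the difference, and the dashed line marks equal change. Most points lie below the line, with *Syt4* farthest to the right, and *Syndig1l* and *Syt6* lie well above it.

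**Figure D5:**
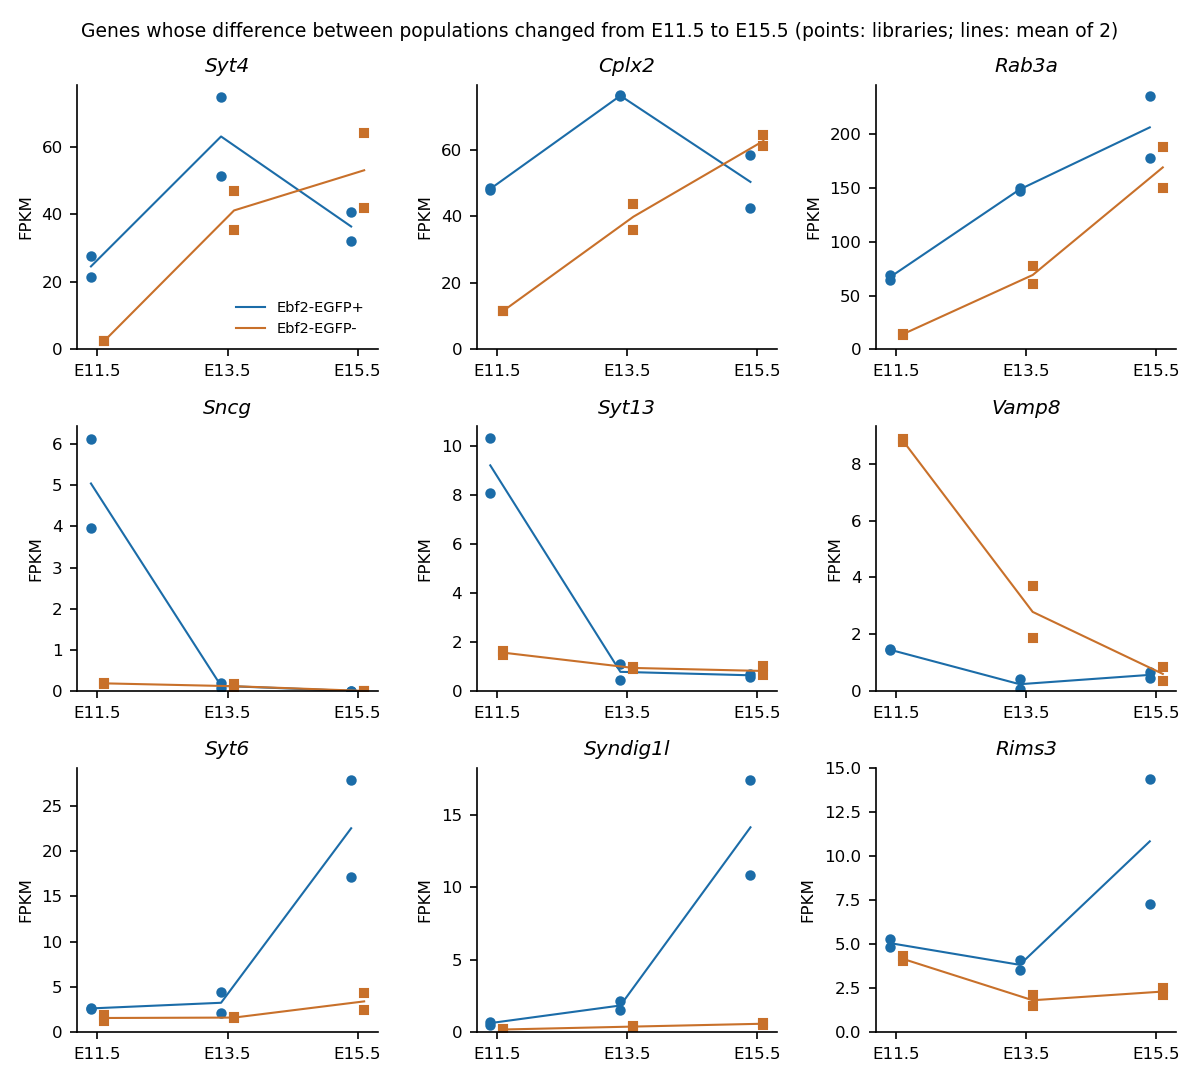
FPKM (y axis) at each stage (x axis) for 9 members whose difference between populations changed, with circles for Ebf2-EGFP+ and squares for Ebf2-EGFP- libraries and lines through the means of 2 libraries. *Syt4* and *Cplx2* cross over by E15.5, *Sncg* and *Syt13* are high in the Ebf2-EGFP+ population at E11.5 only, and *Syt6*, *Syndig1l* and *Rims3* are high in Ebf2-EGFP+ cells at E15.5.

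Neuronal markers moved beside these results. All 14 pan-neuronal markers were higher in the Ebf2-EGFP+ population at E11.5, 11 were so at E13.5 and 6 were still so at E15.5, and the difference moved down for all 14. *Ina* had the largest difference at E11.5 (3.40) and *Gap43* at E15.5 (1.67), *Tubb3* stood at 2.18 at E11.5, and *Elavl4* was lower at E15.5 (-0.80). From E11.5 to E15.5 they went both ways in Ebf2-EGFP+ cells, from -2.13 for *Nefl* to 2.28 for *Mapt*, with 4 up, 5 down and a median of -0.12, against 43 up and 13 down and a median of 0.64 for the vesicle genes. The members' summed FPKM was 25.9 and 28.1% of the pan-neuronal sum in the Ebf2-EGFP+ population at E11.5, then 47.7 and 49.0%, then 48.8 and 46.0%. The Ebf2-EGFP- libraries gave 56.3 and 52.0%, 50.5 and 51.9% and 48.8 and 45.2%. For the 4 neuronal exocytic SNAREs alone these percentages at E11.5 were 3.05 and 3.35 for Ebf2-EGFP+ against 4.84 and 5.43 for Ebf2-EGFP- libraries, and 6.13 and 7.06 against 5.67 and 5.99 at E15.5. The other SNAREs, which are not all neuronal, gave 4.42 and 4.54 against 19.1 and 16.7 at E11.5. *Tubb3* alone measured 2199 and 1885 FPKM of the pan-neuronal sums of 4694 and 4065 FPKM in the Ebf2-EGFP+ libraries of E11.5. Relative to pan-neuronal markers, the sum of the 70 members was thus lowest in the Ebf2-EGFP+ population at E11.5, which the synuclein role did not share. For the genes matched by symbol only, the Ebf2-EGFP+ libraries of E11.5 (1.10 and 1.15%) overlapped those of E13.5 (1.27 and 1.12%). Both lay below all other groups. This ratio was formed after the values were seen, and the part of neuron content in the members' differences was not tested.

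Other cell type lists also differed between the gates. The 6 cell cycle genes, led by *Top2a*, summed to 197 and 174 against 578 and 504 FPKM at E11.5 and 7.91 and 7.91 against 102 and 53.3 FPKM at E15.5. The 5 intermediate progenitor genes, led by *Eomes*, stood at 242 and 227 against 81.3 and 90.1 FPKM at E11.5 and 47.0 and 28.3 against 292 and 148 FPKM at E15.5, and the 7 cortical plate genes, led by *Neurod6*, at 414 and 461 against 64.3 and 68.2 FPKM and then 926 and 616 against 691 and 587 FPKM. Of the intermediate progenitor genes, 1 (*Eomes*) was called higher and 4 were not called at E11.5, and all 5 were lower at E15.5. Of the cortical plate genes, 3 were called higher and 0 lower at E11.5, and 4 higher and 2 lower at E15.5. The 9 interneuron genes, led by *Dlx2*, measured 13.1 and 16.6 against 192 and 251 FPKM at E11.5 and 3.19 and 3.76 against 97.9 and 81.6 FPKM at E15.5, with *Dlx6* and *Nkx2-1* listed at 0 in at least 1 library. The 5 subplate genes listed, led by *Nxph4*, stood at 189 and 168 against 26.7 and 25.1 FPKM at E11.5 and 89.8 and 65.4 against 54.7 and 30.6 FPKM at E15.5, where 2 of them were called higher, 2 lower and *Nxph4* neither. At E11.5, 3 of these subplate genes were called higher and 2, *Ctgf* and *Lpar1*, lower. In Ebf2-EGFP- cells, 6 of the 7 cortical plate genes rose over the stages, whereas 6 of the 9 interneuron genes fell and 1 rose, and the part of these cells in the rise of vesicle genes was not tested. Erythroid genes, 3 of 6 in the table and led by *Hbb-y*, with *Hbb-y* and *Hba-x* at 0 in some libraries, reached 1205 and 2605 FPKM in the Ebf2-EGFP- population at E11.5 and 88.6 and 31.2 FPKM in Ebf2-EGFP+ cells, and the 6 meninges genes, led by *Col3a1*, 129 and 110.0 against 41.9 and 47.2 FPKM. Endothelial genes (3 of 6 in the table, with *Cldn5* listed at 0 in some library) and the microglia gene *Aif1* (1 of 6) summed to at most 7.19 and 2.92 FPKM in any library.

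Genes that work beside the vesicle machinery were read in lists chosen by function. Beside the counts of these lists, 36.8% of all genes were higher and 44.9% lower at E11.5, and 25.8% and 31.6% at E15.5. Of 10 presynaptic calcium channel genes, 9 were higher in the Ebf2-EGFP+ population at E11.5 and 6 at E15.5, and of 13 presynaptic scaffold and adhesion genes 10 and 9. *Cacna2d2*, a channel subunit, measured 16.4 and 23.8 against 4.44 and 6.34 FPKM at E11.5 and 31.1 and 51.6 against 2.22 and 1.98 FPKM at E15.5, and its difference grew from 1.72 to 3.73 (SE 0.25, limma adjusted p = 1.05e-06). *Rimbp2*, which links these channels to RIM proteins, grew from 0.83 to 2.38, the course of *Rims3*, while *Nrxn3* was lower at both stages (-1.19 and -2.53). At E11.5 the channel subunit *Cacna2d1* had the largest difference of these lists (3.57), *Cacnb2* was lower (-0.95), and *Apba2*, the most abundant scaffold gene, stood at 1.02. The most abundant channel gene, *Cacnb3*, had differences of 1.497, 0.78 and 0.34 in order of stage, the last not called (adjusted p = 0.0779) except in the paired fit (adjusted p = 0.0342) and under median-of-ratios scaling (0.55, adjusted p = 0.0207).

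The vesicular transporters, which fill vesicles with transmitter, differed among themselves. *Slc17a6*, the glutamate transporter VGLUT2, measured 49.3 and 58.0 against 0.622 and 1.15 FPKM at E11.5 and 10.2 and 17.5 against 10.1 and 12.1 FPKM at E15.5, a difference of 4.87 (SE 0.25, limma adjusted p = 5.66e-08) that was not called at E15.5. *Slc17a7*, or VGLUT1, was higher at both stages (4.39 and 1.40), and *Slc32a1*, the GABA transporter, was lower at both (-2.34 and -2.74). Of the 5 transporters in the table, 2 were higher and 2 lower at E11.5.

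All 9 dense-core vesicle cargo genes were higher at E11.5, and 4 were higher and 2 lower at E15.5. *Chgb*, a granin, was the farthest apart at E11.5 (2.40), and *Scg3*, the most abundant, stood at 1.82. *Pam*, which amidates peptides, turned from 1.21 to -2.04 (SE 0.19, limma adjusted p = 6.62e-06), and *Pcsk2* stayed higher at 1.44 and 1.83. Of 7 clathrin genes 5 were higher at each of these stages, led by *Dnajc6*, an uncoating factor, at 3.08 and 1.31, with *Itsn1* the most abundant (0.53, 1.05 and 0.72 in order of stage) and *Ston2* lower at E11.5 (-1.25). The E11.5 call of *Itsn1* was lost without Ebf2-EGFP+ replicate 2 (0.46) or either Ebf2-EGFP- library of that stage (0.52 and 0.54). Of 15 postsynaptic scaffold genes 12 and 10 were higher, with *Dlg4* the most abundant (1.65 at E11.5). *Dlgap1* had the largest difference at E11.5 (1.76) and *Homer2* at E15.5 (1.44), while *Dlg1* was lower at E11.5 (-0.93) and *Dlgap2* at E15.5 (-0.70). *Exoc6* and *Exoc6b*, the 2 exocyst genes in the table, ran apart, with -0.59 at E11.5 (-0.38 under median-of-ratios scaling) and 0.84 at E15.5 for *Exoc6* and 0.93 at E11.5 and no call at E15.5 for *Exoc6b*.

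Several limits apply to all values. Each group holds 2 biological replicates, so the spread rests on few libraries. The log2(FPKM + 1) scale understates changes of genes near or below 1 FPKM, such as *Vamp8*, *Syngr2* and *Sncg*. With a pseudocount of 0.1 the E11.5 differences were 4.41 for *Sv2b*, 4.15 for *Sncg*, 2.35 for *Syn2*, 1.29 for *Syndig1l*, 1.65 for *Rimbp2* and -1.69 for *Cacnb2*. That of *Cadps2* at E13.5 was -3.71, and those of *Syngr2* and *Dlgap2* at E15.5 were -2.35 and -1.11. The table holds only genes the authors reported as differential, and other vesicle genes were not analysed here. The Ebf2-EGFP- libraries mix progenitors with several kinds of neuron. Ebf2-EGFP+ cells of different stages need not be the same neurons, and Cajal-Retzius marker levels in the 2 Ebf2-EGFP+ libraries of E15.5 differed from each other.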

How the data were processed

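Poly(A) RNA of 12 libraries, 2 for each of 6 groups of stage and sorted population, was sequenced by the authors as 100-base paired-end reads. The authors aligned reads to mm10 with TopHat2 2.0.8b and computed FPKM with Cufflinks 2.2.0 on a UCSC protein-coding annotation. The deposited FPKM table holds 4859 coding genes the authors reported as differential, with 0 columns left unmapped, and any further scaling between libraries is not stated. The table of long noncoding RNAs was not used here. The members and lists were chosen with earlier results of these data known.

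From the deposited FPKM, log2(FPKM + 1) was fitted with limma 3.58.1 in R 4.3.3 as 6 groups, with empirical Bayes moderation and a trend on mean expression, two-sided, after a test on simulated data. P-values were adjusted by Benjamini and Hochberg over 4859 genes, with a threshold of 0.05. The 6 comparisons were: the populations at each stage, E15.5 against E11.5 in each population, and the change of the difference. Alternatives were a pseudocount of 0.1, a mean FPKM of at least 1 (4462 genes), median-of-ratios scaling over 4711 genes above 0, moderation without a trend, the compared groups alone, a replicate block, at least a 2-fold change, and leaving out each library.

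Libraries with the same replicate number within a stage deviated together (correlation of deviations across genes 0.431, 0.534 and 0.431 in order of stage). Across the members alone the correlations were 0.237, 0.374 and 0.415. The labels give replicate numbers and no pairing, so the pairing was inferred from these values. It was used in the replicate block only, and the main calls come from the fit without it. The block for changes within a population used statmod 1.5.0.

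Genes were named by rule: Sncb, Dnm3 and Syt4, which the study names; the most abundant member of each role; the 3 largest called differences in each direction of each comparison, with libraries that do not overlap; all members of 3 small families; and, in each pathway list, the most abundant gene and those called with the largest difference at E11.5 and E15.5. Some genes the rule takes are not reported here. Sequences are from RefSeq and gene positions from GENCODE M21. The depth of each library was not known beyond an average stated for the samples, so its effect on low values was not assessed.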

Additional observations from a re-analysis of the deposited data

Results flagged for a closer look

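The following 13 genes were flagged because the difference between Ebf2-EGFP+ and Ebf2-EGFP- cells itself differed between E11.5 and E15.5, in limma's test of that change. The values are log2 changes of the difference. It moved down for *Syt4* (-3.40), *Cplx2* (-2.29), *Syt13* (-2.13), *Rab3a* (-1.90), *Syp* (-1.56), *Syt5* (-1.24), *Snap25* (-1.17) and *Syt1* (-1.03). It moved up for *Syndig1l* (2.76), *Vamp8* (1.98), *Syt6* (1.90), *Rims3* (1.54) and *Syngr2* (1.24).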

How the results depend on the processing

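Of the counts of members called, 220 results of other settings stayed within 1.5 times the main count. Requiring at least a 2-fold change left 9 members lower at E13.5, 15 higher and 2 lower at E15.5, 24 higher and 5 lower over the stages in Ebf2-EGFP+ cells, 7 lower over the stages in Ebf2-EGFP- cells, and 6 with the difference moved up; this rule calls fewer genes by construction. A pseudocount of 0.1 left 5 with the difference moved up, and the cause was not tested. Leaving out 1 library at a time gave 50 to 52, 47 to 51 and 28 to 40 members higher in order of stage, with a lone library assumed to vary like the others.

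Of the printed log2 fold changes of single genes, 2505 results of other settings kept their direction and side of the threshold, 28 lost the call, 21 gained it and 0 turned direction. With the replicate block, the paired fit, 45 members were higher and 13 lower at E15.5. Among the differences printed with a value, it changed the calls of *Vamp2*, *Cplx2*, *Syt4*, *Syt6*, *Syt9*, *Rab3a* and *Cacnb3* and no other; among all members it changed further calls, such as those counted in the report.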
